A study of Mus musculus with 6 samples.

Results

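Interferon-stimulated genes are the genes that a cell switches on when interferon reaches it, and 41 of them were followed in mouse fetal liver cells labelled as HSCs, the haematopoietic stem cells. They were chosen by symbol, and all 41 were found among the 23951 genes of the deposited read count table. After the filter on low counts 40 were tested among 12204 genes in all, and Ifit3 was the member left out. The study compared HSCs of the genotype RISP wild type (WT) with HSCs of the genotype RISP knockout (KO), each with 3 libraries of total RNA from strain C57BL/6. RISP is the Rieske iron-sulfur protein, the product of Uqcrfs1 and a catalytic subunit of respiratory complex III. The labels give neither the age of the embryos nor how the gene was deleted, in which cells, or in which of its exons. Nor do they tie libraries to embryos or litters, so p-values cover only library-to-library spread, part of which may be technical.

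Type I interferons bind the IFNAR1 and IFNAR2 receptor chains, and the kinases JAK1 and TYK2 then activate a complex with STAT2 and IRF9 that binds the interferon-stimulated response element (ISRE) in promoters. Interferon gamma acts through its own receptor, and its signal reaches promoters at the gamma-activated site (GAS). Many genes answer to both. Interferons are known to drive adult HSCs out of quiescence, stem cells keep part of this programme on without infection, and mitochondrial nucleic acid that reaches the cytosol is a known trigger of it.

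Promoter sequences were taken from RefSeq (GRCm38.p6) in windows from 250 bases before to 50 bases after each annotated start. The deposited files use another build and hold no coordinates, so the windows were matched by gene symbol, and 32 of the 41 members had one. The ISRE core was searched as GAAANNGAAA and the GAS as TTCNNNGAA, each on both strands, counting overlapping matches. The ISRE core was present in 17 of 32 members (53.1%), against 332 of 9211 tested genes with a window (3.60%). The GAS was present in 10 of 32 members (31.2%), against 8.37% of tested genes. A match is a description of the letters in this window, not a bound site. The stretches printed first are those of the 5 members that were lower in KO, as described below, and that had the core wholly upstream of the start. The capitals mark ISRE core matches on either strand, and each stretch is written along the gene's own strand.
Igtp (chr11:58199502-58199551, plus strand): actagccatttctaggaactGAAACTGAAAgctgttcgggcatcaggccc
Irgm2 (chr11:58214893-58214942, plus strand): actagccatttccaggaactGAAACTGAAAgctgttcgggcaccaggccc
Irgm1 (chr11:48871421-48871470, minus strand): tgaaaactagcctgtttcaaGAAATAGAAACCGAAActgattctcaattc
Gbp2 (chr3:142620584-142620633, plus strand): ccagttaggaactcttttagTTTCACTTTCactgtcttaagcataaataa
Ifit1 (chr19:34640765-34640833, plus strand): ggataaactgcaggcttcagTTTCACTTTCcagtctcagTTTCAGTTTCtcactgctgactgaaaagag
The stretches of Igtp and Irgm2, which lie next to each other in the RefSeq gene order, were identical at 48 of 50 bases, and both windows also held a GAS match. The next 6 stretches belong to the tested members that were not called, held the core wholly upstream and had the second wild type library, described below, as the highest of the 6.
Isg15 (chr4:156200855-156200916, minus strand): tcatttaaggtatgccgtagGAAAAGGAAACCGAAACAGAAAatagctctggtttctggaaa
Oas1a (chr5:120907526-120907565, minus strand): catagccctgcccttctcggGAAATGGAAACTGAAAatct
Oas3 (chr5:120777705-120777754, minus strand): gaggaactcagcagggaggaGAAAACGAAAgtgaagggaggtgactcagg
Rsad2 (chr12:26456543-26456592, minus strand): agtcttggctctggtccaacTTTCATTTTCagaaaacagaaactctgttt
Bst2 (chr8:71537567-71537622, minus strand): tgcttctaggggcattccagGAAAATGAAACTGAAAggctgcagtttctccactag
Gbp7 (chr3:142530263-142530312, plus strand): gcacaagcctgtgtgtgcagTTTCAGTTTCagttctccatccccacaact
The core was wholly upstream of the start in 14 members, and its position nearest the start ranged from -222 in Stat2 to -14 in Oas1a. In Ifih1, Ddx58 and Ifitm3 it lay only after the start. Of members with a window, 6 of 8 that were lower in KO (75.0%) and 10 of 23 that were tested and not called (43.5%) held the core. Dtx3l, Trim25, Tap1, Psmb9, Irf7, Irf9, Ifitm1, Ifi44, Oasl1, Oasl2 and Xaf1 held neither motif in their windows. Mx1, Mx2, Oas2, Dhx58, Zbp1, Usp18, Parp9, Parp14 and Iigp1 had no entry in the table.

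**Figure D1:**
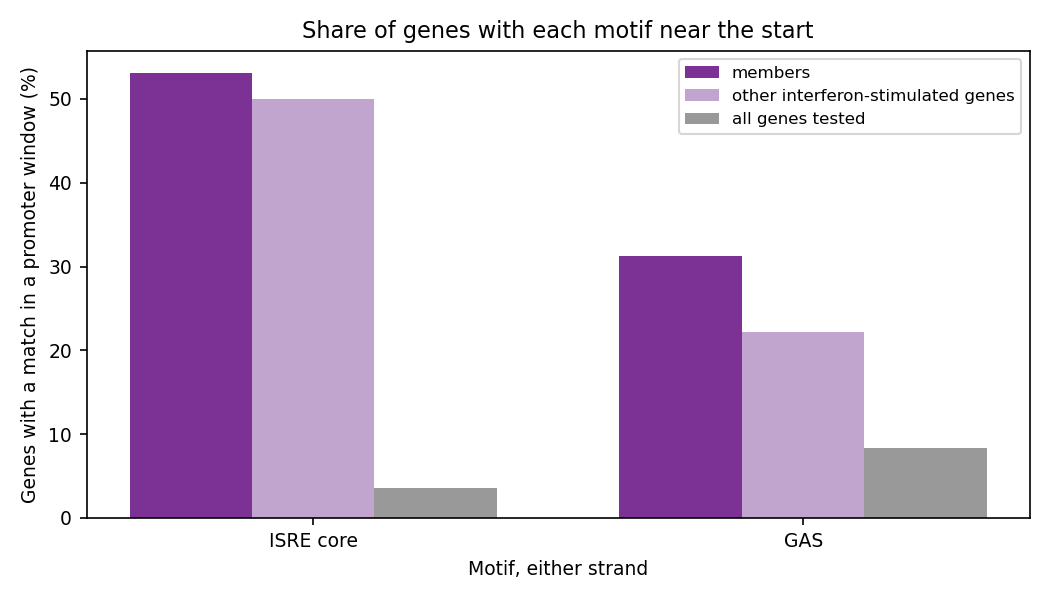
Percent of genes with a promoter window that held the ISRE core or the GAS on either strand, for the 32 members with a window, 36 other interferon-stimulated genes and 9211 tested genes. The ISRE bars stand at 53.1%, 50% and 3.60%, and the GAS bars at 31.2%, 22.2% and 8.37%.

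Total counts ran from 10191354 to 13189329 over WT libraries and from 12020128 to 14590844 over KO libraries, with 13083 to 13551 genes detected in each. Uqcrfs1 stood at 77.3, 123 and 61.0 CPM (depth-scaled counts, with TMM library sizes) in WT replicates 1 to 3, called WT 1 to WT 3 below, and at 4.33, 3.40 and 3.08 CPM in KO 1 to KO 3, as the labels say. Over all tested genes 1391 (11.4%) were called at an adjusted p under 0.05, 4.99% lower and 6.41% higher in KO. Of 12 stem and progenitor markers, summing to 2524 to 2940 CPM in WT and 2258 to 2388 CPM in KO, 3 were called lower in KO in edgeR (Kit at -0.38 on the log2 scale, adjusted p = 0.0212, Hlf at -0.55, adjusted p = 0.0151, and Cd34 at -0.49, adjusted p = 0.00816) and 1 higher (Fgd5 at 0.40, adjusted p = 0.0449). Of the 6 fits that left out a library, Kit kept its call in 2, Hlf in 3, Cd34 in 5 and Fgd5 in 1. The ribosomal RNA precursor Rn45s took 10.5 to 11.7% of counts in WT and 4.96 to 9.92% in KO, and its part in the results was not tested.

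Interferon-stimulated genes were lower in KO or not distinguishable from WT, and none was higher when all 6 libraries were used. Of the 40 tested members 10 (Ifit1, Ifih1, Parp14, Dtx3l, Gbp2, Igtp, Irgm1, Irgm2, Iigp1 and Psmb8) passed the threshold downwards (edgeR's quasi-likelihood test, Benjamini-Hochberg adjusted p under 0.05 over all tested genes), where 4.99% of all tested genes did. Upwards 0 members passed in edgeR, where 6.41% of all tested genes did. An unadjusted p under 0.05 was found upwards in 0 members and downwards in 16, and DESeq2 and limma-voom also called 0 members higher. The median log2 fold change, KO against WT, was -0.73 over the members and -0.02 over all tested genes, and it was below 0 in 35 of 40 members. In 13 members every KO library lay below every WT library, against 14.5% of all tested genes, and those 13 were the 10 called ones with Ifit2, Rsad2 and Trim25. In 0 members did every KO library lie above every WT library, against 15.7% of all tested genes.

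The second wild type library stood apart for these genes. WT 2 was the highest of the 6 libraries in 34 of 40 members, against 15.1% of all tested genes. Summed over the 41 members, the level was 1909 CPM in WT 1, 2995 in WT 2 and 1499 in WT 3, and 1361, 1366 and 1781 CPM in KO 1 to KO 3. KO 3 thus lay above WT 3 in the sum, and the groups overlapped. Without WT 2 the members called lower were 3 of 40 (Dtx3l, Gbp2 and Irgm2, background 4.33%) and 1 was called higher (Ifitm3, background 5.68%). The median without WT 2 was -0.39, against -0.01 over all tested genes, with 31 of 40 members below 0. Every KO library lay below both WT 1 and WT 3 in the same 13 members, against 20.4% of all tested genes, and above both in Oasl1, Bst2 and Ifitm3, also against 20.4%. The count of members called lower was 9 without WT 1 (background 3.03%), 17 without WT 3 (3.87%), 7 without KO 1 (3.95%), 4 without KO 2 (2.10%) and 8 without KO 3 (2.73%).

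**Figure D2:**
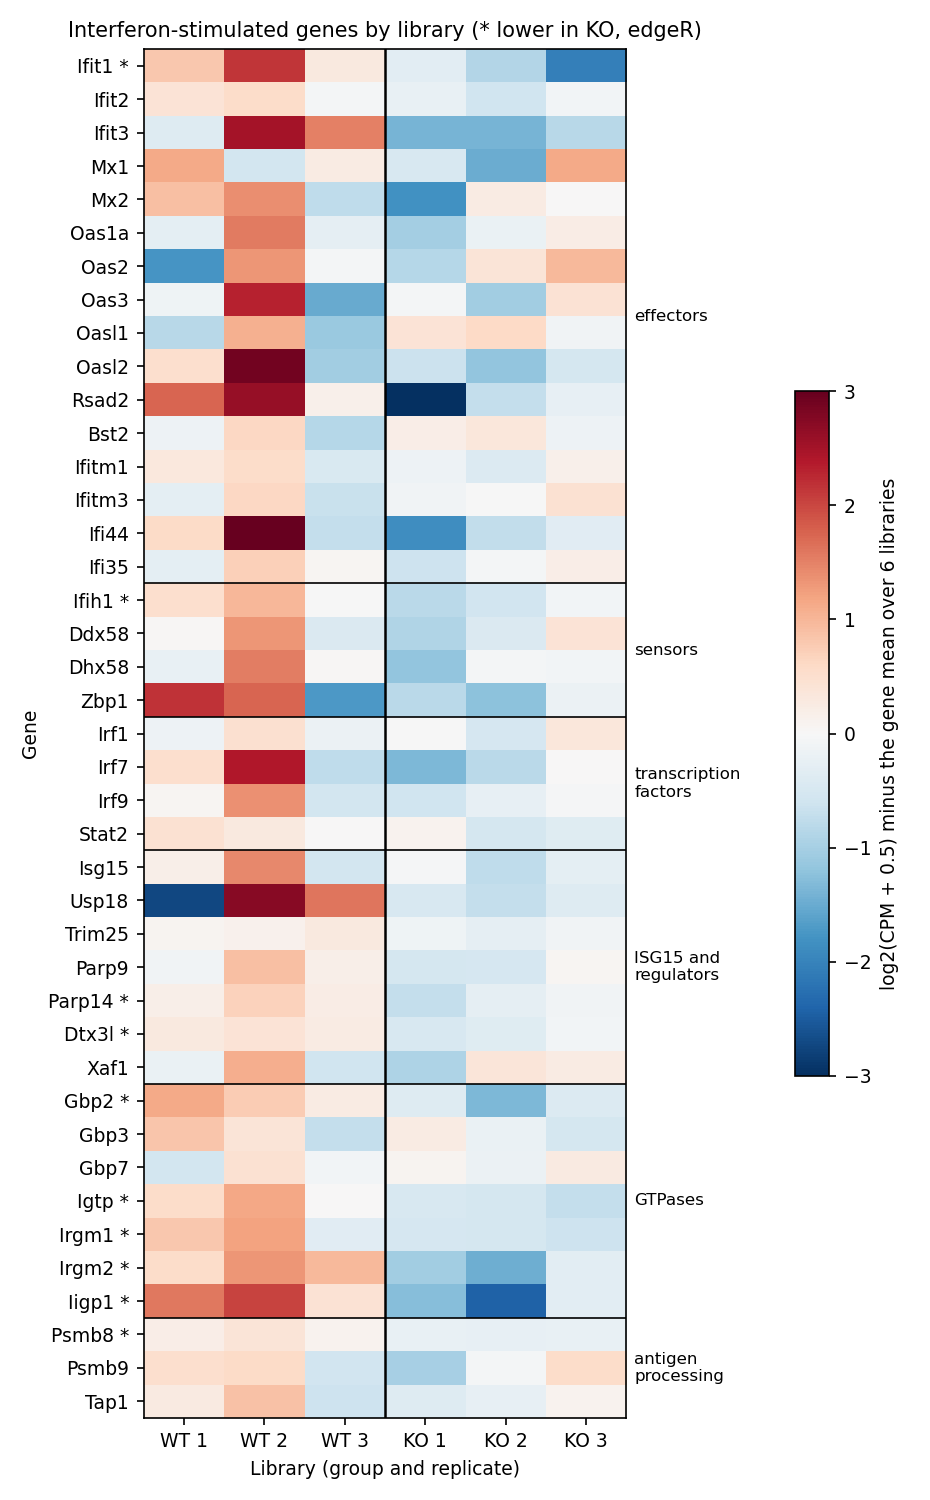
Each row is 1 of the 41 members, grouped by role, and each column 1 library. Colour gives log2(CPM + 0.5) minus the gene's mean over the 6 libraries, with colours ending at 3 and -3. WT 2 is the reddest column, highest of the 6 in 34 of the 40 tested members, and the 10 members marked with a star were lower in KO.

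Markers of other cells also differed between the groups. Beside the counts of markers called lower, the share over all tested genes in edgeR was 4.99%. DESeq2 called more genes over the whole table, 1790 against 1391 in either direction, so 4.99% is not the share for its counts. Macrophage and monocyte markers summed to 208, 112 and 996 CPM in WT 1 to WT 3 and to 39.9 to 84.1 CPM in KO, with 1 of 12 tested markers called lower in edgeR (Ccr2) and 3 of 11 in DESeq2. Neutrophil markers summed to 393 to 554 CPM in WT and 223 to 251 CPM in KO, with 1 of 8 called lower in edgeR (Mpo) and 3 of 8 in DESeq2. Endothelial markers summed to 383, 217 and 1018 CPM in WT and 145 to 194 CPM in KO, with 1 of 7 called lower in edgeR (Tek) and 4 of 7 in DESeq2. Erythroid markers are listed at 0 counts for Hba-a1 and Hbb-b1 in every library, although the authors' deposited RPKM of Hbb-b1 was 373 in WT 1 and 234 in KO 3, so the sums lack these globin genes. The others summed to 186 to 417 CPM in WT and 35.7 to 58.4 CPM in KO, with 3 of 5 called lower. Hepatoblast markers summed to 58.2 to 127 CPM in WT and 26.3 to 63.8 CPM in KO, with 2 of 6 called lower. In WT 2, the library highest for interferon-stimulated genes, the macrophage, endothelial and hepatoblast sums were the lowest of the 3 WT libraries. The neutrophil, erythroid and lymphoid sums of WT 2 lay between those of WT 1 and WT 3. Within the macrophage and monocyte list the untested Ly6c2 peaked in WT 2 (4, 69 and 6 counts in WT), while 0 of the 12 tested markers did. Plasmacytoid dendritic markers, those of the cells that make most type I interferon in blood, drew mostly on Tcf4 and Runx2. They summed to 125, 150 and 139 CPM in WT 1 to WT 3 and to 133, 143 and 144 CPM in KO. WT 2 was the highest of the 6 libraries in this sum and in 3 of the 5 tested markers. Of these 5, 0 were called in edgeR or DESeq2 and 1 had an unadjusted p under 0.05 upwards, with Klk1 at 0. Without WT 2 the median of the 5 moved from 0.07 to 0.94, with 0 below 0. That median was the value of the sparse Siglech (SE 1.77), while the abundant Tcf4 and Runx2 stood at 0.05 and 0.01. Cox6a2 was called higher in KO in this fit (edgeR adjusted p = 0.0240). It was listed at 0 in WT 1 and in WT 3, so the call had no wild type reads to compare with. Siglech, the defining marker of plasmacytoid dendritic cells, stood at 1.40, 4.47 and 0.23 CPM in WT and 0.58, 0.67 and 3.47 CPM in KO. Lymphoid markers summed to 27.7 to 49.5 CPM, with Cd3e and Ncr1 at 0. The part of these cells in the results below was not tested. In bulk RNA fewer cells of a type and less RNA per cell cannot be told apart.

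**Figure D3:**
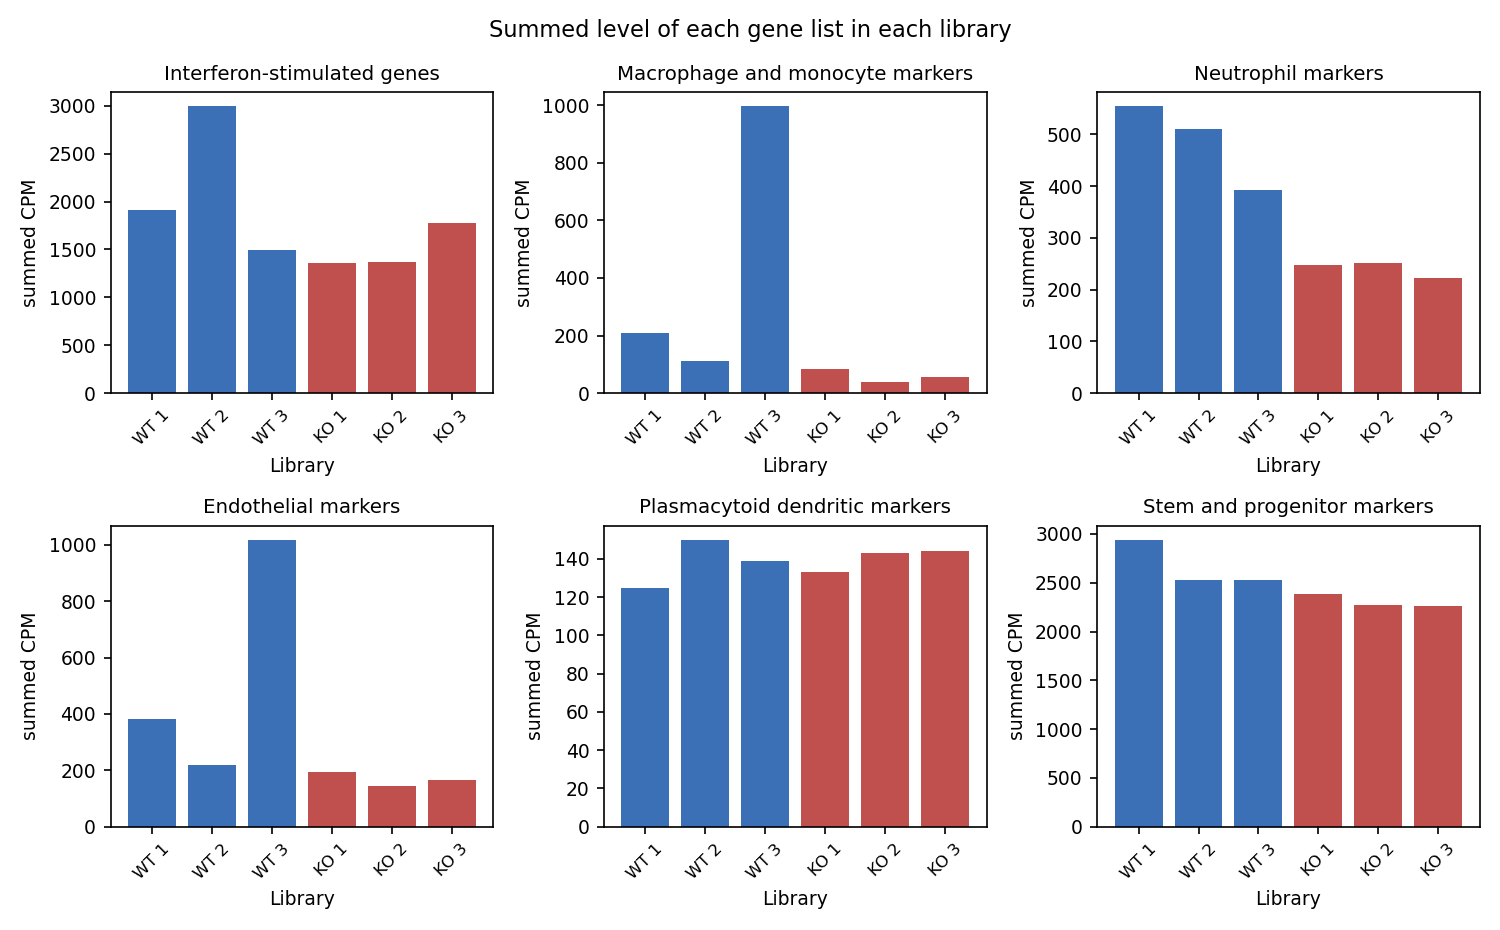
Bars give the CPM summed over a gene list in each library (blue WT, red KO) for the 41 members and 5 lists of cell type markers. The members peak in WT 2 at 2995 CPM, while macrophage and endothelial markers peak in WT 3 at 996 and 1018 CPM.

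The antiviral effectors, the largest role, held 15 tested members, with a median log2 fold change of -0.62. Of them 1 was lower in KO and 0 higher, near the shares of all tested genes (4.99% lower and 6.41% higher). Those shares apply to each role below. Without WT 2 the median of the effectors was -0.09, with 1 higher and 0 lower (shares of all tested genes 5.68% and 4.33%). WT 2 was the highest library in 14 of the 15, at a median of 2.81 times the mean of WT 1 and WT 3.

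Ifit1, which binds the ends of foreign RNA and keeps it from being translated, was the called effector. It stood at 16.3, 41.5 and 11.3 CPM in WT and at 7.14, 4.73 and 1.81 CPM in KO. Every KO library lay below every WT library, although WT 2 was far above the other two. Ifit1 fell by 2.33 on the log2 scale (SE 0.54, edgeR adjusted p = 0.00917). Without WT 2 its log2 fold change was -1.60 (adjusted p = 0.106), and without KO 2 it was -2.36 (adjusted p = 0.0743). Ifit2, its neighbour in function, averaged 49.4 ± 10.5 CPM in WT against 32.1 ± 5.94 CPM in KO (mean ± SD of 3 libraries) with an edgeR adjusted p of 0.0908. Ifit3, not tested with all 6 libraries, had 5, 74 and 42 counts in WT and 0, 0 and 3 counts in KO, where the authors' deposited RPKM was also 0 in KO 1 and KO 2. In edgeR it was called lower without WT 1 (log2 fold change -5.90, adjusted p = 0.0421) and without KO 3 (-8.47, adjusted p = 0.0459). It was not called without KO 1 (adjusted p = 0.126) or without KO 2 (adjusted p = 0.154). The fit without a filter also called Ifit3 lower, and the counts of members lower in those fits include it. Ifit genes are related in sequence, and the sources used here do not give how any shared reads were counted.

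The oligoadenylate synthetases and their relatives were among the members with the highest ratio of WT 2 to the other WT libraries. The synthetases among them answer double-stranded RNA by making oligoadenylates that activate the nuclease RNase L. Oasl2 stood at 20.7, 111 and 6.71 CPM in WT and at 9.01, 6.06 and 9.94 CPM in KO. Oas3 stood at 8.32, 47.2 and 2.85 CPM in WT and at 8.80, 4.13 and 12.5 CPM in KO. In both genes WT 2 was over every other library, and WT 3 was within or below the KO range. The edgeR log2 fold change of Oasl2 was -2.47 (SE 1.19, adjusted p = 0.308) and without WT 2 -0.72 (adjusted p = 0.465). That of Oas3 was -1.20 (SE 1.09, adjusted p = 0.582) and without WT 2 it was 0.60, on the other side of 0 (adjusted p = 0.661).
Oas1a stood at 9.22, 34.7 and 9.48 CPM in WT and at 5.41, 9.99 and 13.4 CPM in KO. Oas2 stood at 1.2, 13.9 and 5.01 CPM in WT and at 2.67, 7.06 and 10.8 CPM in KO. Both had WT 2 on top and KO libraries spread across WT 1 and WT 3, with edgeR log2 fold changes of -0.89 (adjusted p = 0.30) and 0.03 (adjusted p = 0.988). Oasl1, which is known to restrain Irf7 production, stood at 2.51, 10.7 and 2.0 CPM in WT and at 6.63, 7.66 and 4.50 CPM in KO. Its log2 fold change was 0.31 (adjusted p = 0.843), and 1.47 without WT 2 (adjusted p = 0.314). Oas1a has near-identical copies in the mouse, so its counts are uncertain.

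Ifi44 showed the largest gap of WT 2 over the other libraries among members with a mean of at least 5 CPM. It stood at 8.52, 51.0 and 3.16 CPM in WT and at 1.15, 3.13 and 4.26 CPM in KO, and WT 3 overlapped with KO. Its edgeR log2 fold change was -2.87 (SE 1.13, adjusted p = 0.183), and -1.03 without WT 2 (adjusted p = 0.556). Rsad2, named after its values were seen, encodes viperin, a radical SAM enzyme that makes a chain-terminating nucleotide. It stood at 22.5, 41.5 and 7.09 CPM in WT and at 0.07, 3.66 and 5.28 CPM in KO, with no overlap between the groups. Its log2 fold change of -2.98 had an SE of 1.30 and an edgeR adjusted p of 0.247. Without KO 1, the library with a single read of it, Rsad2 was called (-2.40, adjusted p = 0.0306).

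Ifitm1 and Ifitm3, membrane proteins that block virus entry and that stem cells are known to express without interferon, were the most abundant members per length. In the authors' deposited RPKM (reads scaled to gene length and depth) Ifitm3 averaged 543 and Ifitm1 465 over the 6 libraries, followed by Psmb8 at 77.1, while Mx1 was last at 0.383. Ifitm1 stood at 334, 393 and 195 CPM in WT and at 242, 203 and 298 CPM in KO, which overlap (edgeR log2 fold change -0.31, adjusted p = 0.586). Ifitm3 stood at 217, 406 and 168 CPM in WT and at 245, 262 and 365 CPM in KO. With WT 2 the Ifitm3 groups overlapped (log2 fold change 0.14, SE 0.41, adjusted p = 0.885). Without WT 2 every KO library was above both remaining WT libraries, and Ifitm3 was called higher in KO (0.60, SE 0.17, adjusted p = 0.0301).
The other effectors were not called. Bst2, or tetherin, which holds budding virus at the cell surface, stood at 16.9 ± 8.78 CPM in WT and 18.7 ± 3.32 CPM in KO, and Ifi35 at 25.4 ± 9.31 and 20 ± 5.65 CPM (mean ± SD of 3 libraries). Mx1 and Mx2, dynamin-like GTPases that trap viral nucleocapsids, had group means of 0.953 to 2.48 CPM, with 0 counts of Mx1 in KO 2 and of Mx2 in KO 1. Mx1 is known to carry a deletion in C57BL/6 mice, and it was the 1 effector in which WT 2 was not the highest library.

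The 4 sensors had a median log2 fold change of -1.03, with 1 lower in KO and 0 higher, and a median of -0.50 without WT 2. Ifih1 encodes MDA5, the sensor of long double-stranded RNA. It stood at 57.2, 80.6 and 39.9 CPM in WT and at 22.9, 27.1 and 38.2 CPM in KO. The groups did not overlap, and WT 3 and KO 3 nearly touched. Ifih1 fell by 1.01 on the log2 scale (SE 0.26, edgeR adjusted p = 0.0138), and its call was lost without WT 2 (-0.72, adjusted p = 0.104), without KO 1 (adjusted p = 0.0678) and without KO 2 (adjusted p = 0.0774). Ddx58, which encodes RIG-I, the sensor of triphosphate RNA ends, stood at 45.7, 113 and 32.6 CPM in WT and at 23.4, 32.8 and 59.0 CPM in KO, and the groups overlapped. Dhx58, which encodes LGP2, a regulator of the other two, stood at 13.0, 44.8 and 15.6 CPM in WT and at 6.42, 14.6 and 14.3 CPM in KO. Neither passed the threshold in edgeR, with log2 fold changes of -0.73 (adjusted p = 0.555) and -1.05 (adjusted p = 0.154). The last sensor, Zbp1, which binds Z-form nucleic acid and can start necroptosis, was counted 69, 54 and 0 times in WT and 6, 3 and 12 times in KO (adjusted p = 0.206).

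None of the 4 transcription factors of the response passed the threshold in edgeR, where 1 had an unadjusted p under 0.05 downwards, and DESeq2 called that 1, Irf7, lower. Their median log2 fold change was -0.66, or -0.28 without WT 2. Irf7, the factor that switches on the interferon alpha genes, stood at 12.8, 49.2 and 5.09 CPM in WT and at 3.17, 4.86 and 8.99 CPM in KO. Irf9, the DNA-binding partner of STAT2, stood at 49.7, 123 and 32.0 CPM in WT and at 31.0, 39.9 and 46.6 CPM in KO. In both the height of the WT mean came from WT 2, at 5.50 and 3.02 times the mean of WT 1 and WT 3. The edgeR log2 fold change of Irf7 was -1.98 (SE 0.82, adjusted p = 0.183), and -0.66 without WT 2 (adjusted p = 0.614). That of Irf9 was -0.80 (SE 0.53, adjusted p = 0.436), and -0.06 without WT 2 (adjusted p = 0.933). Stat2 did not share the WT 2 peak, at 26.1, 23.4 and 19.1 CPM in WT and 20.3, 13.0 and 14.7 CPM in KO (log2 fold change -0.51, adjusted p = 0.333). Irf1, which is known to answer to interferon gamma, stood at 37.3 ± 10.0 CPM in WT and 34.7 ± 9.86 CPM in KO (mean ± SD of 3 libraries).

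Among the 7 members of the ISG15 system and the other regulators 2 were lower in KO, Dtx3l and Parp14, and 0 higher, with a median log2 fold change of -0.70, or -0.36 without WT 2. Dtx3l is a ubiquitin ligase that works in a complex with Parp9, and it lies between Parp14 and Parp9 in the RefSeq gene order. It stood at 184, 202 and 178 CPM in WT and at 107, 116 and 142 CPM in KO. The groups did not overlap and WT 2 was only slightly above the other WT libraries. Dtx3l fell by 0.63 on the log2 scale (SE 0.13, edgeR adjusted p = 0.00406), and it stayed under the threshold whichever library was left out, at most at an adjusted p of 0.0334, in the fit without KO 2. Parp14, which attaches single ADP-riboses to proteins, stood at 90.2, 128 and 93.5 CPM in WT and at 48.6, 65.9 and 73.6 CPM in KO, again with no overlap. It fell by 0.73 (SE 0.19, edgeR adjusted p = 0.0133), and its call was lost without WT 2 (-0.55, adjusted p = 0.0881) and without KO 1 (-0.58, adjusted p = 0.0745).
The third gene of the run, Parp9, stood at 44.1 ± 17.1 CPM in WT and 27.2 ± 6.90 CPM in KO (mean ± SD of 3 libraries, edgeR adjusted p = 0.111). Trim25, a ubiquitin ligase that acts on RIG-I, stood at 125, 128 and 143 CPM in WT and at 107, 96.3 and 108 CPM in KO. The Trim25 groups did not overlap, but its log2 fold change of -0.34 (SE 0.14) had an edgeR adjusted p of 0.117. Isg15, the ubiquitin-like protein that gives the system its name, had few reads, with 25, 72 and 17 counts in WT and 29, 16 and 21 counts in KO (adjusted p = 0.561). Usp18, which removes ISG15 and damps the type I receptor, was listed at 0, 232 and 124 counts in WT and at 26, 23 and 26 counts in KO. The authors' deposited RPKM of Usp18 was 0.283 in WT 1, so the 0 count is in doubt, and 1.08 to 1.33 in KO. Its WT libraries lay on both sides of the KO range on either scale (edgeR log2 fold change -2.51, SE 1.37, adjusted p = 0.315), and without WT 1 it was called lower (-3.09, adjusted p = 0.00469). Xaf1, which promotes cell death, stood at 16.9 ± 11.3 CPM in WT and 13.8 ± 5.96 CPM in KO.

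The interferon-inducible GTPases held the most called members: 5 of 7 were lower in KO and 0 higher, where 4.99% and 6.41% of all tested genes were. Their median log2 fold change was -1.26. Without WT 2 the median was -0.90 and 2 of 7 stayed under the threshold, where 4.33% of all tested genes were lower. In 5 of 7 every KO library lay below every WT library, against 14.5% of all tested genes. The immunity-related GTPases Igtp, Irgm1, Irgm2 and Iigp1 and the guanylate-binding proteins act on membranes around intracellular pathogens, and many of them answer to interferon gamma. Irgm1, Irgm2 and Igtp act as regulators that keep effectors such as Iigp1 off the cell's own membranes, and Irgm1 is also known for its part in the upkeep of mouse HSCs.

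Irgm2 stood at 22.3, 38.2 and 29.6 CPM in WT and at 6.99, 5.06 and 11.8 CPM in KO. The lowest WT library was above the highest KO library by a wide margin. Irgm2 fell by 1.92 on the log2 scale (SE 0.36, edgeR adjusted p = 0.00153), by 1.71 without WT 2 (adjusted p = 0.0125), and it was called whichever library was left out, at most at an adjusted p of 0.0140, in the fit without KO 2. Its neighbour Igtp, whose promoter stretch is nearly the same, stood at 26.0, 40.1 and 17.8 CPM in WT and at 12.5, 12.1 and 10.6 CPM in KO. The KO libraries of Igtp were close together and all below WT. Igtp fell by 1.25 (SE 0.34, edgeR adjusted p = 0.0184), and its call was lost without WT 2 (-0.90, adjusted p = 0.160), without KO 2 (adjusted p = 0.0627) and without KO 3 (adjusted p = 0.0799).
Irgm1 stood at 73.4, 97.2 and 32.7 CPM in WT and at 29.3, 28.9 and 26.8 CPM in KO. WT 3 was only just above the KO libraries. Irgm1 fell by 1.26 (SE 0.30, edgeR adjusted p = 0.0135), but it kept its call in 1 of the 6 fits that left out a library, the one without WT 3, and the adjusted p was 0.0506 without WT 2 and up to 0.103 without KO 3. Iigp1 stood at 15, 20.8 and 6.55 CPM in WT and at 1.66, 0.47 and 3.71 CPM in KO, where KO 2 held 7 reads of it. The groups did not overlap, and the fold was the largest among the called members. Iigp1 fell by 2.86 (SE 0.68, edgeR adjusted p = 0.00869), and its call was lost without WT 2 (-2.47, adjusted p = 0.0614).
Gbp2 differed from most other members in that WT 1 and not WT 2 was highest, at 41.1, 31.6 and 21.7 CPM in WT and at 13.9, 6.86 and 13.6 CPM in KO. It fell by 1.46 (SE 0.34, edgeR adjusted p = 0.00824) and by 1.45 without WT 2 (adjusted p = 0.0205), while its call was lost without WT 1 (-1.22, adjusted p = 0.0638) and without KO 2 (-1.19, adjusted p = 0.0525). Gbp7, from the same cluster of guanylate-binding genes, stood at 61.8, 124 and 85.7 CPM in WT and at 97.0, 80.1 and 110 CPM in KO. The Gbp7 groups overlapped fully (log2 fold change 0.08, SE 0.21, adjusted p = 0.864). Gbp3, next to Gbp7 in the gene order, stood at 24.8 ± 12.1 CPM in WT and 18.3 ± 5.09 CPM in KO (mean ± SD of 3 libraries). Both families consist of close copies, so reads could be split between them.

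The 3 members of antigen processing had a median log2 fold change of -0.46, with 1 lower in KO, and of -0.09 without WT 2. Psmb8, a catalytic subunit of the immunoproteasome, stood at 121, 137 and 114 CPM in WT and at 89.0, 88.7 and 89.4 CPM in KO. The KO libraries were nearly equal and all below WT. Psmb8 fell by 0.47 on the log2 scale (SE 0.14, edgeR adjusted p = 0.0344), and its call held only in the fit without WT 3 among the 6 that left out a library, with an adjusted p of 0.135 without WT 2. Tap1, a subunit of the peptide transporter of the endoplasmic reticulum, lies between Psmb9 and Psmb8 in the gene order. It stood at 68.0, 105 and 36.6 CPM in WT and at 43.2, 48.0 and 60.6 CPM in KO, and the groups overlapped (log2 fold change -0.46, adjusted p = 0.419). Psmb9, the other immunoproteasome subunit of the list, stood at 21.0 ± 8.21 CPM in WT and 17.2 ± 8.81 CPM in KO.

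**Figure D4:**
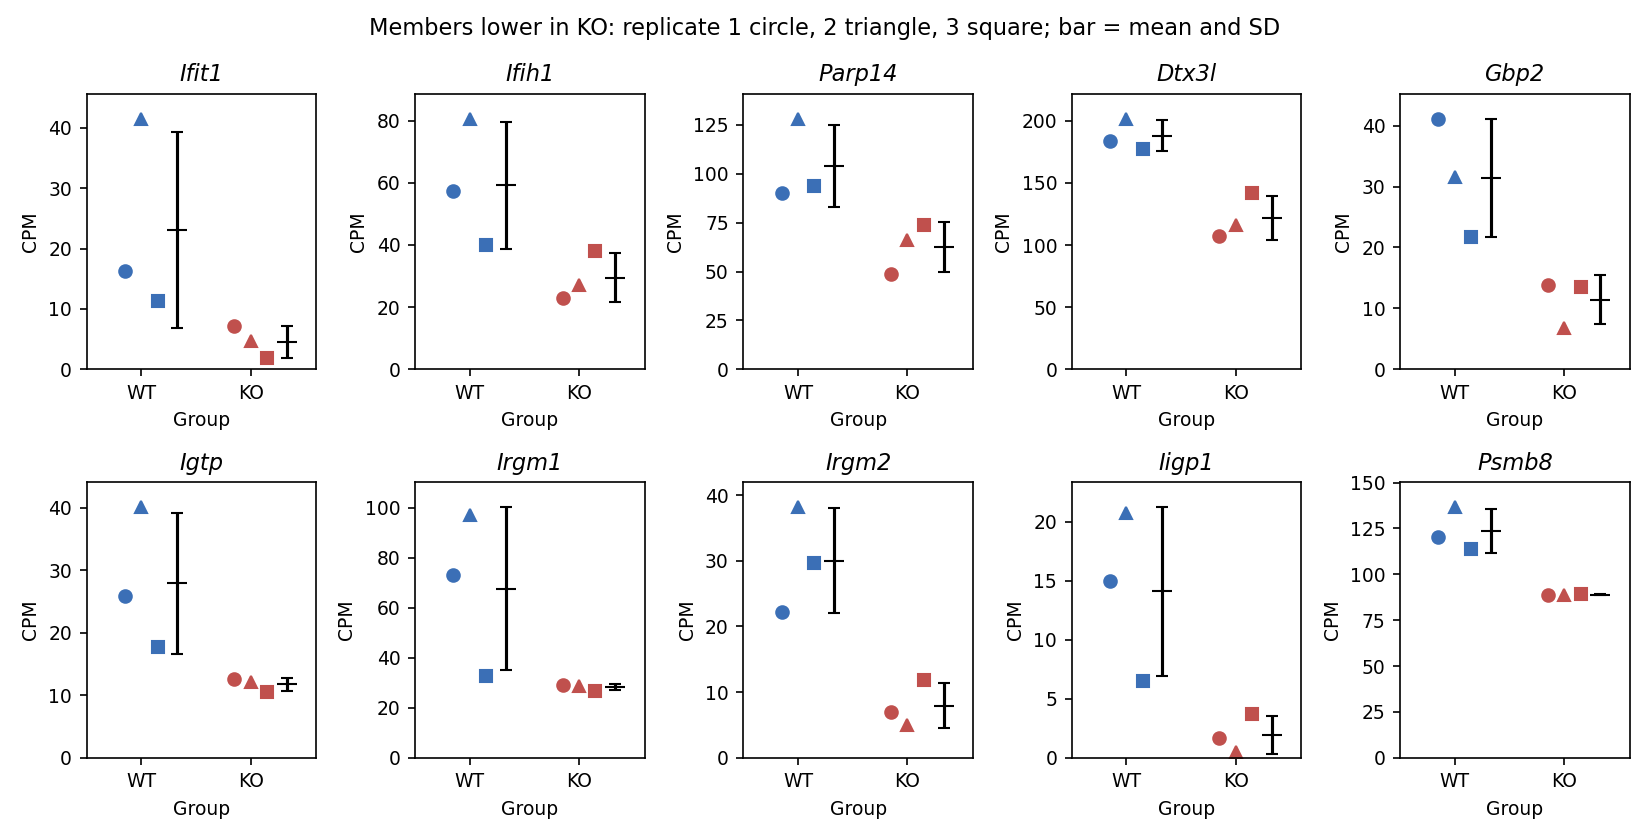
CPM of the 10 members lower in KO in each library, with the mean and SD of 3 libraries as bars and a linear axis from 0 in each panel. No KO library reaches the lowest WT library in any panel, by a wide gap in Irgm2 and a narrow one in Ifih1 and Irgm1.

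The KO libraries also differed among themselves. KO 3 was the highest KO library in 28 of 40 tested members, where 34.5% of all tested genes had KO 3 on top. KO 1 was highest in 7 and lowest in 18, and KO 2 was highest in 5 and lowest in 16. The fit without WT 3, which left WT 1 and WT 2 as the wild type, added Ifit2, Oasl2, Ifitm1, Ifi44, Irf7, Irf9 and Tap1 to the 10 called members. Their adjusted p in that fit was 0.00420 for Ifi44, 0.00494 for Irf7, 0.0243 for Irf9, 0.0164 for Ifitm1 and 0.0262 for Tap1. None of these 5 passed without WT 2, where their adjusted p ran from 0.556 for Ifi44 to 0.947 for Tap1 (edgeR).

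**Figure D5:**
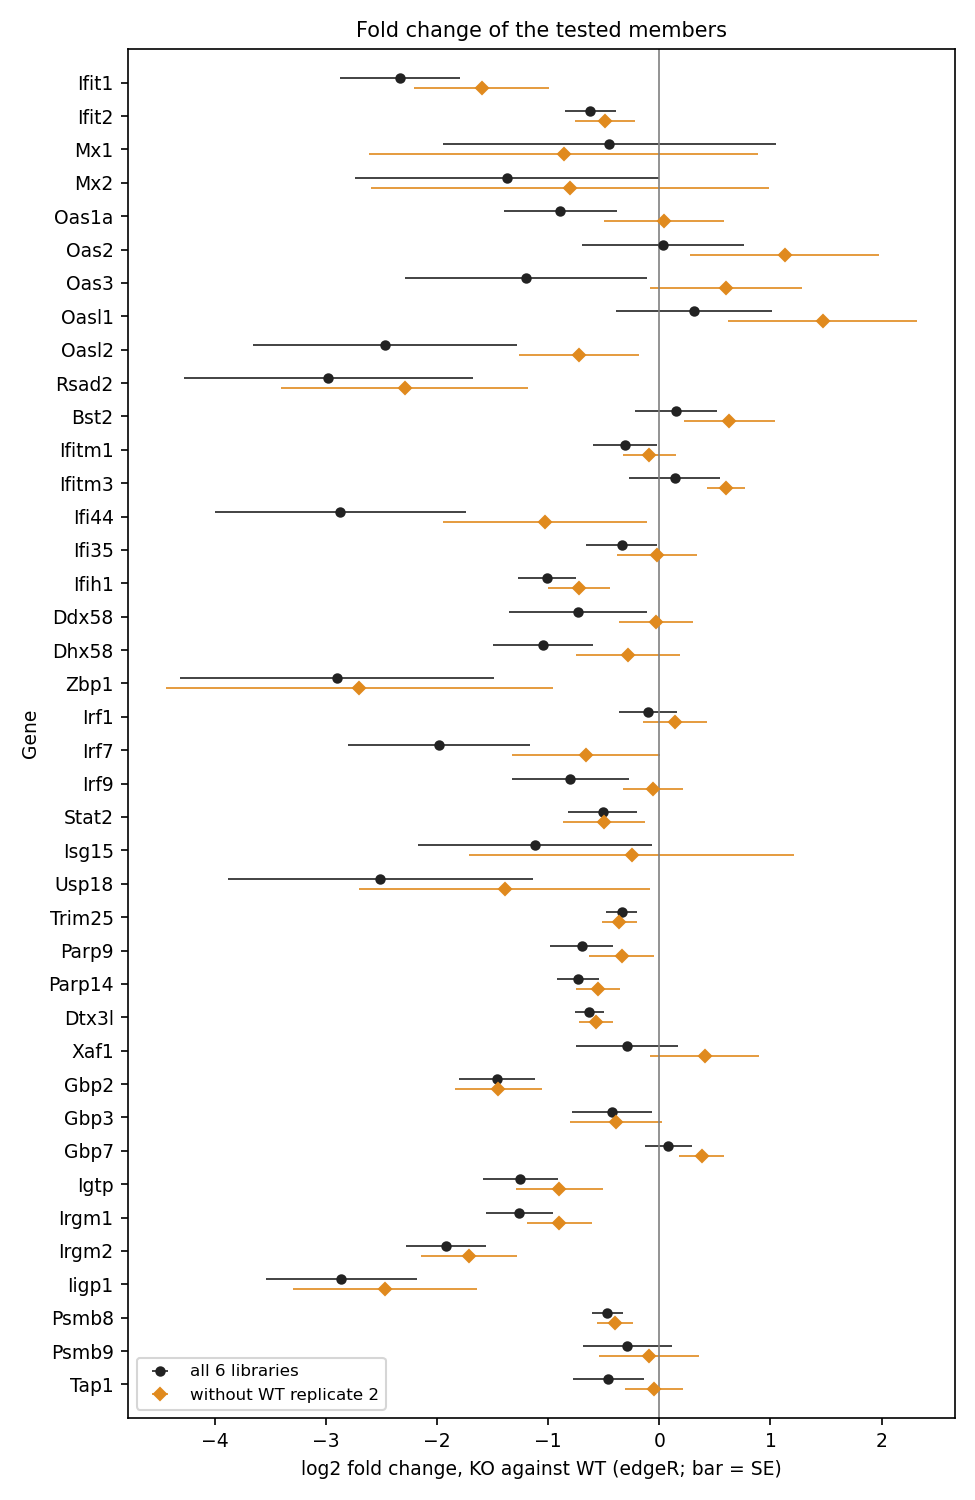
log2 fold change, KO against WT, of the 40 tested members (points, bars are SE) from all 6 libraries in black and without WT 2 in orange. Ifi44, Oasl2, Oas3 and Irf7 move most towards or past 0 without WT 2, from -2.87 to -1.03 in Ifi44, while Gbp2 stays at -1.46 and -1.45.

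Upstream of the members, the interferon genes themselves were listed at 0. Of 18 interferon ligand genes in the table, among them Ifnb1, Ifng and the interferon alpha genes, all 18 were listed at 0 counts in every library. By the authors' deposited RPKM, 16 of them were at 0 throughout, while Ifnk was listed at 1.01 in KO 2 and Ifnz at up to 0.0377. How reads that match several copies were counted is unknown, so a 0 here sets no limit on these close relatives. The 10 tested receptor and JAK-STAT genes were present, and 0 were called in either direction in edgeR, DESeq2 or limma-voom. Their median log2 fold change was -0.33. An unadjusted edgeR p under 0.05 was found downwards in 6 of them and upwards in 0. The receptor gene Ifnlr1 was not tested, with 2 counts in WT 3 and 0 in every other library. Ifnar1 stood at 97.9 ± 2.83 CPM in WT and 88.1 ± 5.76 CPM in KO, and Ifnar2 at 110 ± 5.98 and 85.5 ± 6.45 CPM (mean ± SD of 3 libraries, edgeR adjusted p = 0.579 and 0.124). Ifngr1, a chain of the interferon gamma receptor, had a log2 fold change of -0.36 (adjusted p = 0.193), and the kinase Tyk2 one of 0.33 (adjusted p = 0.437). Jak1 had one of -0.30 (adjusted p = 0.0921), and without WT 2 it was called lower at -0.40 (adjusted p = 0.0341). The genes that brake receptor signalling, among them Socs1 and Socs3, had 0 of 8 called in edgeR and a median of 0.24, with an unadjusted p under 0.05 upwards in 2, of which DESeq2 called 1.

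Among 17 genes of nucleic acid sensing and relay 1 was higher and 2 were lower in KO, with a median log2 fold change of -0.10. The share higher was near that of all tested genes (6.41%), while 4.99% of all tested genes were lower, and both counts are small. Myd88, the adaptor of most Toll-like receptors, fell by 0.91 (SE 0.26, edgeR adjusted p = 0.0283, and at most 0.138, without KO 2). Irf5, which acts after that adaptor, fell by 1.07 (SE 0.30, adjusted p = 0.0229, and at most 0.0929, without WT 1). Aim2, the sensor of cytosolic DNA that forms an inflammasome, rose by 0.89 (SE 0.28, adjusted p = 0.0485) and lost the call in each fit that left out a library (highest adjusted p = 0.203 without KO 1). Of 9 genes that clear or edit nucleic acid 1 was lower, Samhd1, which breaks down deoxynucleotides, at 261 ± 53.1 CPM in WT and 169 ± 5.63 CPM in KO (mean ± SD of 3 libraries). Samhd1 fell by 0.62 (SE 0.13, edgeR adjusted p = 0.00405) and was called in all 6 fits that left out a library.

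Interferon-stimulated genes outside the 41 also had members of both kinds, called lower or not called. Of 44 tested genes of this kind 11 were lower in KO and 0 higher, with a median log2 fold change of -0.70, where 4.99% of all tested genes were lower and 6.41% higher. Without WT 2 there were 5 lower, where 4.33% of all tested genes were, and a median of -0.42. The 11 were Trim30a, Ifi47, Ifitm2, Tgtp2, Cmpk2, Ddx60, Lgals9, Ly6e, Shisa5, Ifi30 and Irf8. Cmpk2, a mitochondrial nucleotide kinase encoded beside Rsad2, stood at 13.7, 44.0 and 15 CPM in WT and at 4.54, 2.66 and 4.65 CPM in KO. It fell by 2.62 on the log2 scale (SE 0.48, edgeR adjusted p = 0.00104) and by 1.86 without WT 2 (adjusted p = 0.0405). Ly6e, a surface protein with a part in virus entry, stood at 183, 259 and 218 CPM in WT and at 116, 115 and 120 CPM in KO. It fell by 0.91 (SE 0.13, edgeR adjusted p = 0.000126). Irf8, a factor of monocyte and dendritic cell development, stood at 46.4 ± 10.9 CPM in WT and 19.4 ± 3.62 CPM in KO and fell by 1.25 (SE 0.26, adjusted p = 0.00324). These 3 genes were called whichever library was left out, and the other 8 in 2 to 4 of the 6 such fits. Tgtp2 has a near-identical copy, Tgtp1, listed at 0 counts, so its counts are uncertain. Ifi30, a lysosomal reductase of antigen-presenting cells, fell by 2.34 (adjusted p = 0.0450), but it peaked at 54.4 CPM in WT 3, the library highest for macrophage markers, and at 11.5 CPM in WT 2 it was not high there.

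The MHC class I pathway beyond the members had 4 of 13 tested genes lower in KO (B2m, Tapbp, Erap1 and Calr) and 0 higher, with a median log2 fold change of -0.31. Of all tested genes 4.99% were lower and 6.41% higher. Without WT 2 there were 2 lower, where 4.33% of all tested genes were. B2m, the light chain of every class I molecule, stood at 664, 789 and 490 CPM in WT and at 361, 304 and 408 CPM in KO. The B2m groups did not overlap, and it fell by 0.86 (SE 0.16, edgeR adjusted p = 0.00327) and by 0.69 without WT 2 (adjusted p = 0.00292). Calr, the chaperone calreticulin, stood at 1101 ± 215 CPM in WT and 729 ± 66.9 CPM in KO (mean ± SD of 3 libraries) and fell by 0.60 (SE 0.12, adjusted p = 0.00324). Both were called in all 6 fits that left out a library, while Tapbp (adjusted p = 0.204 without WT 2) and Erap1 (adjusted p = 0.186 without KO 3) were not.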

How the data were processed

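RNA from fetal liver HSCs was sequenced in 3 WT and 3 KO libraries made with a stranded total RNA kit for very small samples, per the labels' protocols. The authors deposited 1 table of whole read counts per gene symbol, not normalized, and 1 table of RPKM. TopHat, Cufflinks and the mm9 build are named per the submitters' processing notes. Not given in the sources used here are their versions, the counter, its strand setting and its treatment of shared reads, so antisense partners and close gene copies may share counts. All columns of both tables were used.

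The deposited counts were fitted over the whole table in R 4.3.3 by edgeR 4.0.16, with TMM scaling, its filterByExpr, the robust quasi-likelihood test and group as sole covariate, with Benjamini-Hochberg adjustment over all tested genes and a threshold of 0.05. CPM used TMM library sizes. The code was tested on simulated data. limma 3.58.1, DESeq2 1.42.0, other scalings, filters and pseudocounts, a replicate block and leaving out each library were alternatives. Same-numbered WT and KO libraries did not deviate together (r of 0.0128, 0.0124 and -0.00766), so numbers were not taken as pairs. Replicate groups of 3 libraries limit precision, and PCR reads were not tagged by molecule. For some genes a 0 count stands beside a deposited RPKM above 0, so a 0 is given as listed.

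Members and lists were chosen with earlier results of these data known. Library values are given for members called with or without WT 2, the 8 highest by mean CPM, the 8 with the highest ratio of WT 2 to the other WT libraries, and 8 chosen by role (Isg15, Usp18, Stat2, Irf9, Irf7, Ifih1, Ddx58 and Dhx58). Every pathway gene past the threshold with all 6 libraries is named, with Ifnar1, Ifnar2, Ifngr1, Jak1 and Tyk2. A gene of that rule is not reported here.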

Additional observations from a re-analysis of the deposited data

How the results depend on the processing

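Of the 10 members lower in KO, Dtx3l and Irgm2 passed the threshold in each of the 15 alternatives run. The count was 10 with RLE scaling, 9 with library totals, 11 with DESeq2, 9 with limma-voom and 15 without a filter. Over all genes these settings called 1383, 1423, 1790, 1392 and 1778 genes, in place of 1391. The count of members was 3 with limma on log2(RPKM + 1) and 2 on log2(RPKM + 0.1), where 583 and 560 genes were called over all genes. DESeq2 without WT 2, chosen after seeing the data, gave 4 lower and 1 higher, with 1571 genes called over all genes. Leaving out each library in turn gave 3 to 17 members lower, 0 to 1 higher and 712 to 1263 genes called. The cause was not tested, though such fits use fewer samples. The median of the members lay between -1.14 and -0.39 over those 6 fits.

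With the replicate number as a block 10 members were lower, 0 higher and 1341 genes were called, with a member median of -0.65. The numbers are not shown to pair the libraries.

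None of the members whose log2 fold change took the other sign in some fit was called with all 6 libraries. Leaving out each library gave -2.44 to 0.34 for Mx1, -1.21 to 0.04 for Oas1a, -0.46 to 1.13 for Oas2, -1.72 to 0.60 for Oas3, -0.08 to 1.47 for Oasl1 and -0.15 to 0.63 for Bst2. It gave -0.10 to 0.60 for Ifitm3, -0.32 to 0.14 for Irf1, -0.60 to 0.41 for Xaf1, -0.13 to 0.38 for Gbp7 and -0.72 to 0.04 for Psmb9. DESeq2 without WT 2 gave 0.03 for Oas1a, 0.60 for Oas3, 0.14 for Irf1 and 0.40 for Xaf1. Over the 40 tested members, the fits that left out a library gave 188 values that kept their sign and side of the threshold. Another 23 lost the call, 10 gained one and 19 changed sign, with the cause not tested. For Mx1, Mx2, Isg15, Ifit3 and Zbp1, at under 7 CPM in every library, depth limits what can be seen.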

Other observations

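WT 2 differed from the other libraries in more than the members. Among 10236 genes with a mean of at least 5 CPM, the 30 with the largest ratio of WT 2 to the highest other library held 9 members, 5 genes of the list of other interferon-stimulated genes and 6 replication-dependent histone genes. Members and that list thus made up 46.7% of the 30, and 25% of the 36 members with at least 5 CPM were among them. The order began with Ifi44 (5.99 times the next library), Oasl2 (5.34), Rtp4 (5.21) and Gm12250 (4.75), and then came the histone gene Hist1h2bj (3.86), Irf7 (3.84), Oas3 (3.79), Pyhin1 (3.05) and H2-T24 (3.02). Genes with no part in the interferon response by name also stood there, such as Sec24d (2.94), which encodes a vesicle coat protein, and Fdps (2.16), an enzyme of isoprenoid synthesis. WT 2 was the highest library in 32 of the 36 members and in 15.3% of all genes at this level. It was at least 2-fold above the mean of WT 1 and WT 3 in 17 of the 36, against 2.18% of all genes. The ranking was made on that library, so these values describe it and test nothing.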
